A study of Homo sapiens with 9 samples.

Results

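MSX2 and DRD1 are neighbouring protein-coding genes on human chromosome 5 that were chosen, with the domain around them, from the values described here. The rule places MSX2 at chr5:174151001-174158000 and DRD1 near chr5:174870000 on the hg19 build, within a domain from chr5:172800001 to 176000000. The shares of reads that the libraries of each set held there chose the members, so the shares and every measure made from them are given as a description with no test. The members were the 2 genes, each described by the window that holds it, and their domain was covered by 64 of the 56725 windows of 50 kb kept over the genome, or by 160 windows of 20 kb. The study sequenced nascent DNA from HCT116, a colorectal carcinoma line, and from RPE1, a retinal pigment epithelial line immortalised with telomerase. Per the labels, DNA was collected from early, mid and late S phase and enriched on streptavidin. There was 1 HCT116 set of 3 libraries and there were 2 RPE1 sets of 3 libraries, with no treatment and no engineered change named for either line. Both lines were grown in the same medium, and the labels leave unsaid if the 2 RPE1 sets were separate cultures. HCT116 mid and late S carry the number 2 and HCT116 early S carries none, although the labels tie all of them to 1 table.

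Cells copy different parts of the genome at different times of S phase, in domains that can span many genes. A domain copied early gives most of its nascent DNA to the early fraction, and one copied late gives most to the late fraction, so the shares of a window among the fractions describe its timing. Late domains are often poor in genes and in active promoters, and the timing of such domains can differ between cell types. MSX2 encodes a homeobox transcription factor that acts in the development of the skull, limbs and teeth and responds to bone morphogenetic protein signals. DRD1 encodes the D1 dopamine receptor, a G-protein-coupled receptor that raises cyclic AMP and is best known from the striatum.

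In the RefSeq order of genes on GRCh38.p14, used here for names and order alone, CPEB4, C5orf47 and NSG2 lie before MSX2, and SFXN1, HRH2 and CPLX2 follow DRD1. CPEB4 binds messenger RNA and controls its poly(A) tail, NSG2 acts in vesicle traffic of neurons, SFXN1 carries serine into mitochondria, HRH2 is the histamine H2 receptor and CPLX2 controls synaptic vesicle fusion. No protein-coding gene lies between MSX2 and DRD1 in that order. The entries between them are 3 lncRNAs, 2 pseudogenes and 1 microRNA. No value is given for these neighbours, because hg19 positions were used here for MSX2 and DRD1 only.

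The promoters of the pair are shown because both genes share a domain whose reads fell to other libraries in HCT116 than in RPE1, and their start regions can be read side by side. Each sequence covers 250 bases before to 50 bases after the gene's start, from RefSeq on GRCh38.p14, written 5′ to 3′ on the gene's own strand, with each CG in capitals. Both promoters were found in that table.
MSX2 (plus strand): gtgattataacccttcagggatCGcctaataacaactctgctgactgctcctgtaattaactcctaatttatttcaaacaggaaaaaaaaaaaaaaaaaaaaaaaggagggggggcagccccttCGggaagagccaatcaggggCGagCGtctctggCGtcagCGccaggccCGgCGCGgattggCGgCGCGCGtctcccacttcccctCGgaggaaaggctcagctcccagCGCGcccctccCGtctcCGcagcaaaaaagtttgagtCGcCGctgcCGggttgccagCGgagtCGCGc
DRD1 (minus strand): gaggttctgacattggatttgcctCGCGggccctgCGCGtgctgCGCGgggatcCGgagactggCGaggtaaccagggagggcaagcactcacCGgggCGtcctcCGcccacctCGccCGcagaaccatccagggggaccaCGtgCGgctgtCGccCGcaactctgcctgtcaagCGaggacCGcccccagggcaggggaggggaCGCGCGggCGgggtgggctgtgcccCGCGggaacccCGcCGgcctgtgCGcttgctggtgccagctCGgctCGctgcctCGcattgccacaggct
The MSX2 promoter holds 24 CG and a GC content of 57%, and 66.1% of the 35116 promoters in the table have fewer CG. The DRD1 promoter holds 31 CG and a GC content of 72.3%, and 79.3% have fewer CG. The median promoter has 14 CG and a GC content of 58.7%, so both genes lie above it in CG, and MSX2 does not in GC. Short motifs were searched on both strands. CCAAT matched at 2 places at MSX2 and 1 at DRD1, and is held by 34.6% of all promoters. GGGCGG matched at 0 places at MSX2 and 3 at DRD1, and is held by 45.0%. TATAAA matched in neither window and is held by 11.5%. No match of 1 motif overlapped a match of another, and a match is a description only.

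The deposited tables hold 3 count columns per set with no names, and the labels do not say which column holds which fraction. Columns are therefore called libraries A, B and C by position, and a letter is not a fraction. The pair was put forward as earlier in HCT116, and that direction in S phase could not be checked, since no column could be given to a fraction. Whether a letter stands for like material in each set was examined over 53703 autosomal windows of 50 kb, which are not independent replicates. Each HCT116 library correlated best with the library of the same letter in both RPE1 sets. For library A the Pearson r of shares was 0.84 with RPE1 set 1 and 0.83 with RPE1 set 2. Library B gave 0.43 and 0.47, and library C gave 0.76 and 0.77. Between the RPE1 sets the same letter gave 0.99 for library A, 0.68 for library B and 0.98 for library C. Library B was thus the least alike letter within RPE1 too. HCT116 was the shallowest set with 27519669 reads, against 35891538 in RPE1 set 1 and 55421713 in RPE1 set 2, and single libraries held between 6170299 and 22930078. With 1 HCT116 set its values carry no replicate error. The intervals given are exact binomial (Clopper-Pearson) 95% intervals of the raw share, carried to the share after libraries were scaled to equal totals. The ratio of the other 2 libraries was held as observed, so the intervals cover counting error only, and not all of it.

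MSX2 gave few of its reads to library C in HCT116 and most of them to library C in RPE1. In its 50 kb window, chr5:174150001-174200000, libraries A, B and C had 175, 354 and 68 reads in HCT116. They had 161, 76 and 614 reads in RPE1 set 1 and 164, 197 and 479 reads in RPE1 set 2. Library B was thus the deepest at MSX2 in HCT116, while library C was the deepest in both RPE1 sets. After each library was scaled to an equal total, library C held 17.6% of the window in HCT116 (interval 14.1 to 21.6), against 63.1% in RPE1 set 1 (59.5 to 66.6) and 61.1% in RPE1 set 2 (57.8 to 64.4). RPE1 averaged 62.1% ± 1.40 (SD, n = 2), from which HCT116 differed by -44.5 points. The RPE1 SD was larger in narrower spans, at 6.52 points in the 20 kb window and 10.5 points in the gene body.

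Libraries A and B both held a larger share at MSX2 in HCT116 than in RPE1. Library A held 34.0% at MSX2 in HCT116 (30.1 to 38.2), against 16.0% ± 2.62 in RPE1 (SD, n = 2). Library B held 48.3% in HCT116 (44.2 to 52.5), against 21.9% ± 4.01 in RPE1 (SD, n = 2). The differences were 18.1 points for library A and 26.4 points for library B, so the larger difference was in library B. In HCT116 the share of library B at MSX2 was above that of 88.4% of all kept windows, whereas its library A share was above that of 57.1%.

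Over the 7 bins of 1 kb that hold MSX2 itself the counts were low, with 67 reads in HCT116, 91 in RPE1 set 1 and 114 in RPE1 set 2. Library C held 25.5% there in HCT116 (13.9 to 39.7), against 76.7% and 61.9% in the RPE1 sets. Library A held 20.9% in HCT116 (11.4 to 33.2), against 15.7% and 6.76% in the RPE1 sets. At this scale libraries A and C could not be ordered in HCT116, since their intervals overlap widely. In the 20 kb window, chr5:174140001-174160000, library C held 18.7% in HCT116, against 70.6% and 61.4% in the RPE1 sets. Over 100 kb to each side it held 16.9% in HCT116, against 57.1% and 55.3% in the RPE1 sets, so the gap at MSX2 was present at every span used.

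DRD1 gave a like picture, with a larger library A share in HCT116 than MSX2 had in the 50 kb windows. In its 50 kb window, chr5:174850001-174900000, libraries A, B and C had 162, 256 and 54 reads in HCT116. They had 147, 64 and 589 reads in RPE1 set 1 and 137, 228 and 423 reads in RPE1 set 2. Library C was the shallowest in HCT116 and the deepest in both RPE1 sets. Its scaled share was 17.4% in HCT116 (13.5 to 21.9), against 65.2% in RPE1 set 1 (61.5 to 68.7) and 57.1% in RPE1 set 2 (53.6 to 60.6). RPE1 averaged 61.2% ± 5.67 (SD, n = 2), a difference of -43.8 points for HCT116.

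At DRD1 library A held 39.2% in HCT116 (34.6 to 43.9), against 15.0% ± 3.56 in RPE1 (SD, n = 2). Library B held 43.4% in HCT116 (39.0 to 48.0), against 23.8% ± 9.22 in RPE1 (SD, n = 2). The RPE1 sets themselves differed by 13.0 points in library B at DRD1, beside 19.6 points between HCT116 and the RPE1 mean. The difference in library A was 24.2 points, and the RPE1 sets differed by 5.03 points in it. In the 20 kb window, chr5:174860001-174880000, library C held 17.9% in HCT116, against 65.8% and 59.8% in the RPE1 sets. Library A held 32.6% there in HCT116 (25.9 to 39.9) and library B held 49.5% (42.3 to 56.9). These shares lay near the 30.4 and 50.9% of the 20 kb window of MSX2. At this span the difference from the RPE1 mean was 17.2 points in library A and 27.8 points in library B.

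**Figure D1:**
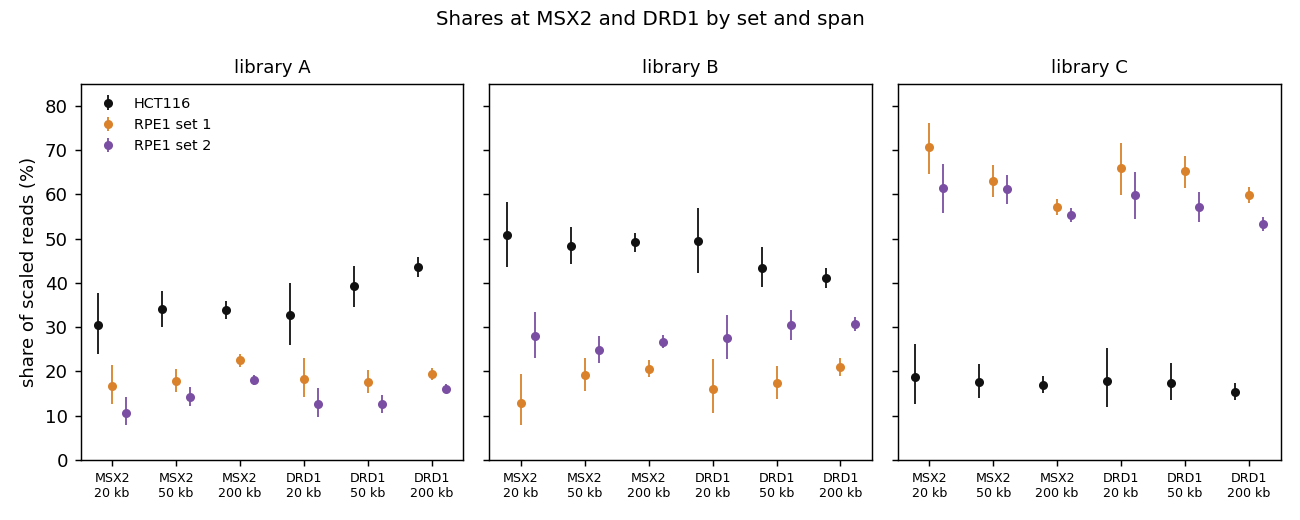
Shares of scaled reads (%, vertical axis) of libraries A, B and C at MSX2 and DRD1 in spans of 20, 50 and 200 kb (horizontal axis). Points are sets and bars are 95% counting intervals. HCT116 lies above both RPE1 sets in libraries A and B and below both in library C at every span, with library C at MSX2 in the 50 kb window at 17.6% in HCT116, against 63.1 and 61.1% in the RPE1 sets.

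Set against each other within HCT116, the genes differed in how library A and library B shared the reads. Over 100 kb to each side, library A held 43.5% around DRD1 (41.2 to 45.8) and 33.9% around MSX2 (31.9 to 36.0), and these counting intervals do not overlap. Library B ran the other way, with 41.1% around DRD1 (38.9 to 43.3) and 49.2% around MSX2 (47.0 to 51.3). In the 20 kb and the 50 kb windows the intervals of library A at the 2 genes overlap. The difference therefore rests on the wider span and on counting error only. Library C did not separate the genes in HCT116, with 15.4% around DRD1 (13.5 to 17.4) and 16.9% around MSX2 (15.1 to 18.9). In RPE1 library C held 59.8 and 53.3% around DRD1 and 57.1 and 55.3% around MSX2.

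The leading axis puts the libraries of a set into 1 number for each window. It is the first principal component of the centred log2 scaled reads over autosomal windows, divided by its SD there. In every set library C had a positive weight and library A a negative one, so high values lie towards library C. Library B had a weight of -0.21 in HCT116, against -0.29 in RPE1 set 1 and 0.10 in RPE1 set 2, so the axis is not the balance of libraries A and C alone. It carried 82.9% of the variance in HCT116, against 95.2% in RPE1 set 1 and 82.1% in RPE1 set 2. MSX2 lay at -0.69 SD in HCT116, against 1.06 SD in RPE1 set 1 and 1.19 SD in RPE1 set 2. DRD1 lay at -0.78 SD in HCT116, against 1.10 SD and 1.28 SD in the RPE1 sets. The difference from the RPE1 mean was -1.81 SD at MSX2 and -1.97 SD at DRD1. Of all kept windows, 444 (0.783%) had a lower difference than MSX2 and 218 (0.384%) had a lower one than DRD1. Within its own set MSX2 was above 39.1% of windows on the axis in HCT116 and above 77.2 and 85.6% in the RPE1 sets. DRD1 was above 33.0% in HCT116 and above 79.98 and 91.1% in the RPE1 sets. In HCT116 both genes therefore lay below the median window of the axis but not at its library A end.

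A window was called apart where HCT116 lay at least 1 SD below both RPE1 sets on the axis. Of the 64 windows of the domain 31 were apart (48.4%), against 7.78% of all kept windows, and since the domain was chosen on these shares nothing is read from that excess. The 31 windows were adjacent and made a run from chr5:173600001 to 175150000, 1550 kb long, that holds MSX2 and DRD1 at this limit and window size. None of the 16 windows before the run or the 17 after it was apart. A rule on the shares alone gave nearly the same windows. Shares and axis are made from the same scaled reads, so the rules are not independent and their likeness is built in. Library C led in both RPE1 sets and was the lowest library in HCT116 in 29 of 64 windows of the domain, against 5.65% of all kept windows, and all 29 lay in the run. No window of the domain had HCT116 at least 1 SD above both RPE1 sets, and in no window were the RPE1 sets themselves that far apart.

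Just outside the run, the window at 173550001 differed by -0.94 SD from RPE1 set 1 and -0.98 SD from RPE1 set 2, close to the limit. The first window inside, at 173600001, differed by -1.43 and -1.42 SD. The last window inside, at 175100001, differed by -1.38 and -1.44 SD, and the next, at 175150001, by -0.92 SD from both. Within the run the mean difference was -1.76 SD, between -2.26 SD at 174750001 and -1.28 SD at 174050001. The RPE1 sets differed from each other by at most 0.274 SD in any window of the run. The length of the run depends on the window size and on the scale of the axis. In 20 kb windows the run around MSX2 was 1240 kb long and ended before DRD1. The window at 174820001 missed the limit there, at -1.06 and -0.996 SD, while that of DRD1 was apart at -1.71 and -1.88 SD. With a limit of 1.5 SD the run around MSX2 was 500 kb long, and on an axis of normal ranks it was 100 kb long. Neither of these reached DRD1.

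**Figure D2:**
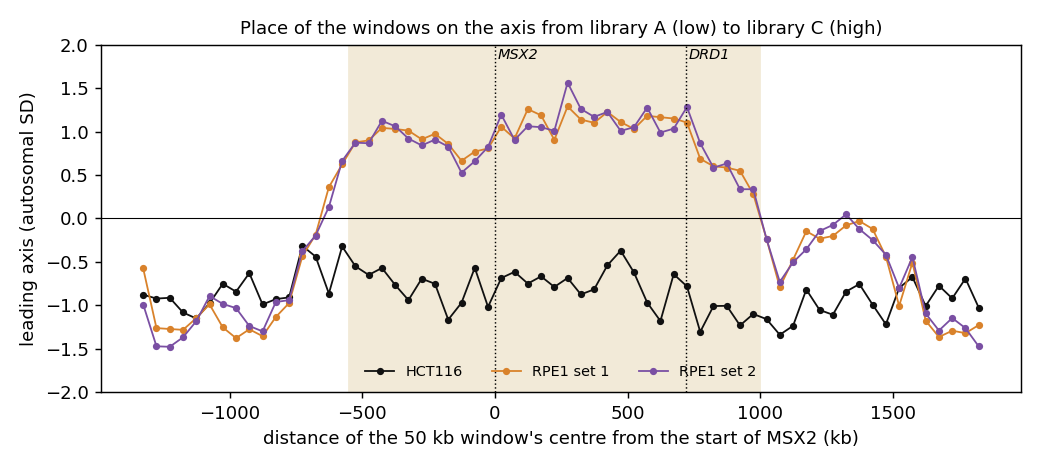
Leading axis (autosomal SD, vertical axis; low towards library A, high towards library C) of the 50 kb windows of the domain by distance from the start of MSX2 (kb, horizontal axis). Each point is 1 window of 1 set, and the shaded band is the run. HCT116 stays between -1.34 and -0.32 SD, while the RPE1 sets lie on a plateau above 0 in the run and below 0 at both ends of the domain.

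The axis and library C varied little over the domain in HCT116 and had a plateau in RPE1. The SD of the axis over the 64 windows was 0.236 in HCT116, against 0.952 in RPE1 set 1 and 0.947 in RPE1 set 2. Within the run alone it was 0.232 in HCT116, against 0.239 and 0.276 in the RPE1 sets, so the axis varied about as much there. The SD of library C within the run was 2.41 points in HCT116, against 9.61 and 7.67 points in the RPE1 sets. Library C was the lowest of the libraries in all 64 windows in HCT116, with shares between 12.0 and 21.7%. In the RPE1 sets it ran between 3.15 and 71.6% and between 13.5 and 66.6%. Library C held more than library A in 0 of 64 windows in HCT116, against 33 in RPE1 set 1 and 34 in RPE1 set 2. In both RPE1 sets 33 of those windows formed 1 stretch of 1650 kb that began at 173500001. In 20 kb windows the numbers were 1 of 160 in HCT116, against 82 and 89 in the RPE1 sets.

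The single 20 kb window of HCT116 with more of library C than of library A, at chr5:173440001-173460000, lay outside the run. Its shares of libraries A, B and C were 28.0, 36.6 and 35.5% in HCT116. In RPE1 set 1 they were 31.2, 42.8 and 26.0%, and in RPE1 set 2 they were 27.2, 40.8 and 32.0%. Library C was there above its share in the next window, at 173460001, in all sets, with 20.8% in that next window in HCT116, against 12.5 and 19.2% in RPE1. This window was singled out after its values were seen.

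RPE1 reached the plateau over about the same stretch in both sets. In blocks of 100 kb library C held 4.99 and 15.7% at 173300001 in RPE1 set 1 and RPE1 set 2. It held 14.6 and 22.5% at 173400001, 38.0 and 33.3% at 173500001 and 55.1 and 48.9% at 173600001, where the run begins. The share dipped to 49.7 and 47.8% at 174000001, just before MSX2, and was highest in the block at 174400001, between the genes, with 69.3 and 64.1%. After DRD1 it declined, with 46.6 and 47.4% at 174900001 and 24.3 and 27.4% at 175100001. The windows between the genes, chr5:174200001-174850000, thus held the crest of library C in RPE1, at 62.6% ± 4.61 (SD, n = 2), against 16.9% in HCT116.

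HCT116 showed a structure of its own in libraries A and B. Within the run the SD of library A was 6.79 points in HCT116, against 4.17 and 3.17 points in the RPE1 sets. That of library B was 6.36 points in HCT116, against 6.39 and 5.45 points. Over the domain the SD of library A was 9.37 points in HCT116, against 15.8 and 16.7 points. That of library B was 9.33 points in HCT116, against 13.2 and 8.94 points. In HCT116 library A held 44.0% in the block at 173900001 (40.7 to 47.3), 35.3% at 174000001 (32.3 to 38.3) and 28.7% at 174400001 (25.7 to 31.9). It was higher again past DRD1, with 47.3% at 174900001 (44.1 to 50.4) and 48.8% at 175000001 (45.6 to 51.9). Library B mirrored it, with 56.6% at 174400001 and 36.7% at 175000001. The 50 kb window with the least of library A in HCT116 (26.8%) and the most of library B (57.8%), at 174400001, was also the window with the most of library C in both RPE1 sets (71.6 and 66.6%). Within the run library B led 23 windows and library A led 8 in HCT116, whereas library C led 30 in RPE1 set 1 and 29 in RPE1 set 2. Over the 31 windows of the run the axis of HCT116 had a Pearson r of 0.51 with RPE1 set 1 and 0.45 with RPE1 set 2, and the RPE1 sets had 0.90 with each other. Over all 64 windows the values were 0.26, 0.27 and 0.99. Neighbouring windows share domains, and these correlations are descriptions.

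**Figure D3:**
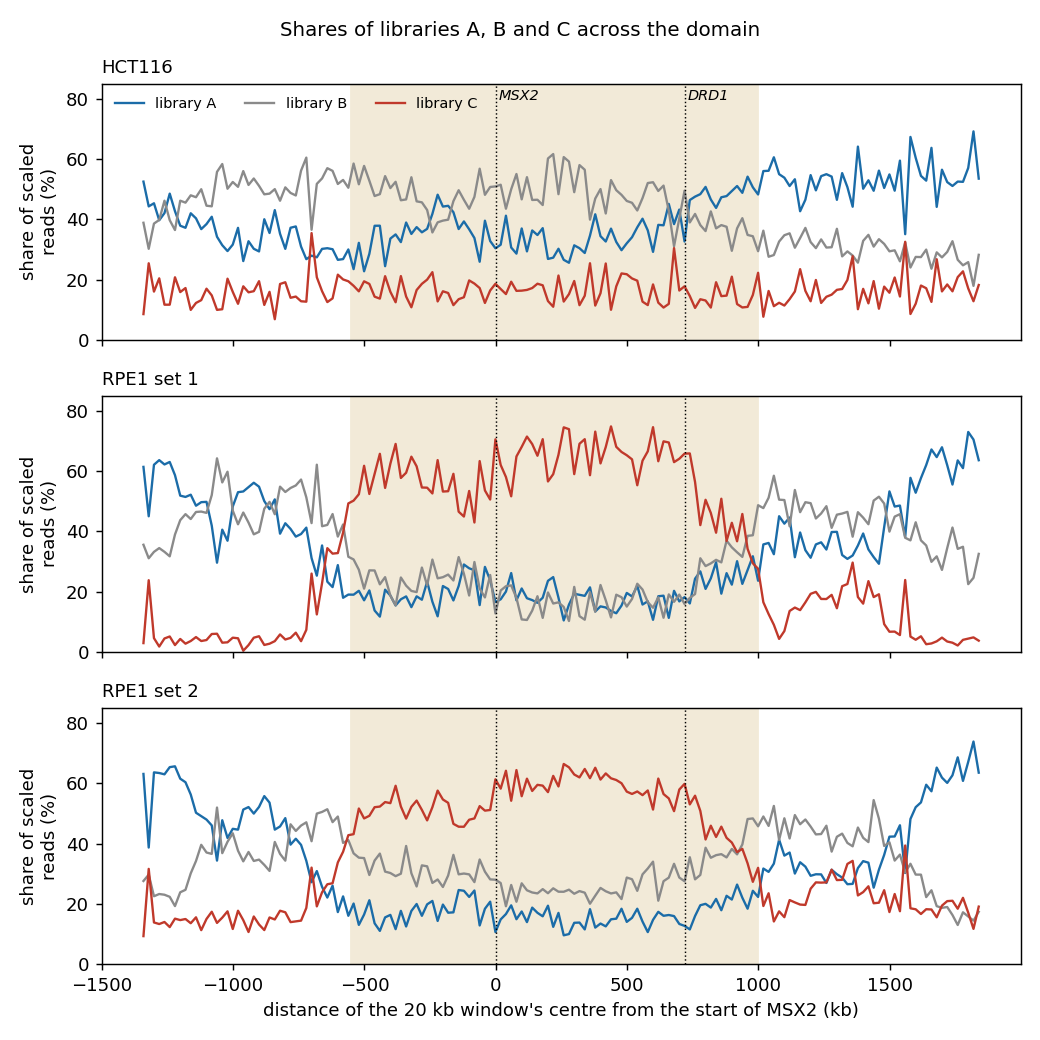
Shares of scaled reads (%, vertical axis) of libraries A, B and C in 20 kb windows by distance from the start of MSX2 (kb, horizontal axis), with 1 panel for each set and the run shaded. Library C stays lowest through the run in HCT116, where it held 16.3% of the run as a whole, and is the highest line over most of it in RPE1, where it held 58.5 and 53.0%.

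Beyond the run the lines differed in both directions. Before it, from 172800001 to 173600000, library A held 35.0% in HCT116, against 44.2% ± 0.245 in RPE1 (SD, n = 2), which puts HCT116 below RPE1 there (difference -9.15 points). Library C held 16.4% in HCT116, against 10.9 and 18.4% in the RPE1 sets, within their spread. The mean difference of the axis from both RPE1 sets ran from -1.11 SD at 173500001, where the difference from RPE1 set 2 alone was -0.996 SD and missed the limit, to 0.63 SD at 173200001. After the run, from 175150001 to 176000000, library A held 53.0% in HCT116, against 44.7% ± 3.35 in RPE1 (SD, n = 2), and led 17 of 17 windows in HCT116, against 7 in each RPE1 set. The mean difference of the axis there ran from -0.97 SD at 175400001 to 0.60 SD at 175900001. Library C held 17.1% there in HCT116, against 11.3 and 22.4% in the RPE1 sets. The share of library C in HCT116 was therefore about the same on both sides of the run and in the run. These shares lie towards the low end of library C in HCT116, with a 10th percentile of 14.8% and a median of 22.6% over all kept windows. That low end differs by set, with 10th percentiles of 3.58 and 15.7% in the RPE1 sets.

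The summed reads of a set were not used to choose the members, and with 1 HCT116 set they were not tested. Each library was weighted equally and the autosomal mean was set to 1. The run stood at 0.905 in HCT116, against 1.12 in RPE1 set 1 and 0.953 in RPE1 set 2, and the RPE1 mean was 1.04 ± 0.119 (SD, n = 2). HCT116 stood at 0.872 of the RPE1 mean, at 0.806 of RPE1 set 1 and at 0.949 of RPE1 set 2, so the size of the gap depended on the RPE1 set. The window of MSX2 stood at 1.13 in HCT116, against 1.24 and 0.953 in the RPE1 sets, and that of DRD1 at 0.908, against 1.15 and 0.8997. HCT116 lay between the RPE1 sets at both genes, so the summed reads did not separate the lines there. All of chromosome 5 stood at 0.947 in HCT116, against 0.938 and 0.939 in the RPE1 sets. Split by library, the run stood at 1.01, 1.26 and 0.443 of the autosomal mean in libraries A, B and C of HCT116. It stood at 0.664, 0.732 and 1.97 in RPE1 set 1 and at 0.490, 0.853 and 1.52 in RPE1 set 2. The copy number of the run in each line was not measured separately, and its part in these levels was not tested.

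**Figure D4:**
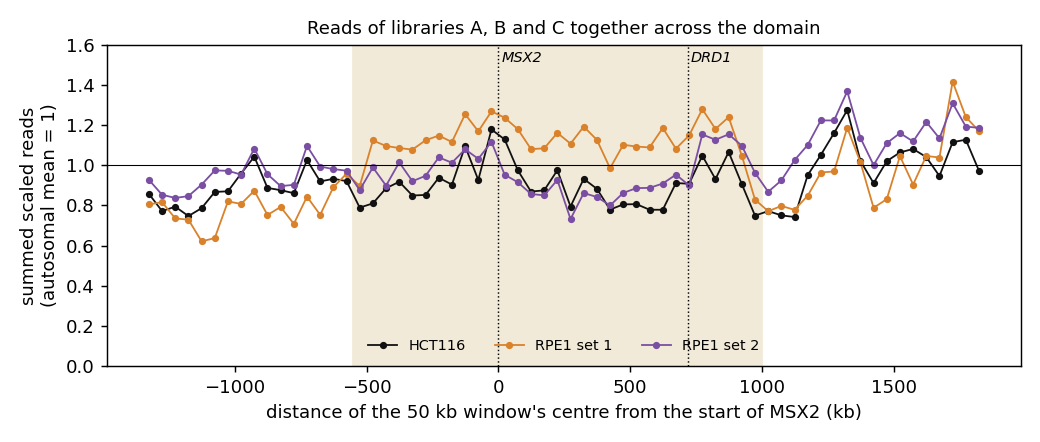
Reads of libraries A, B and C together, each library weighted equally (autosomal mean = 1, vertical axis), in 50 kb windows by distance from the start of MSX2 (kb, horizontal axis). Points are windows of 1 set, and the shaded band is the run. The lines of the sets cross, with the run as a whole at 0.905 in HCT116, against 1.12 and 0.953 in the RPE1 sets.

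The run was 1 of 292 autosomal runs of at least 5 adjacent windows in the same direction, and the longest of them at the limit used. The next was 1500 kb long, at chr4:30150001-31650000, where libraries A, B and C held 48.8, 33.2 and 18.0% in HCT116. Library A led 22 of its 30 windows in HCT116, against 8 of 31 in the run of MSX2 and DRD1. The other long runs compared were on chromosomes 7, 8, 11, 12 and 17. Library C held between 15.9 and 20.3% in HCT116 over these, and library B led most windows of the runs on chromosomes 7, 12 and 17, as it did around MSX2. The order by length changed with the settings. In 20 kb and in 100 kb windows 1 autosomal run was longer than that of MSX2, at 0.5 SD 7 were, at 1.5 SD 6 were, and with normal ranks 176 were. All of these runs were picked on the same measure, so their likeness was not tested.

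**Figure D5:**
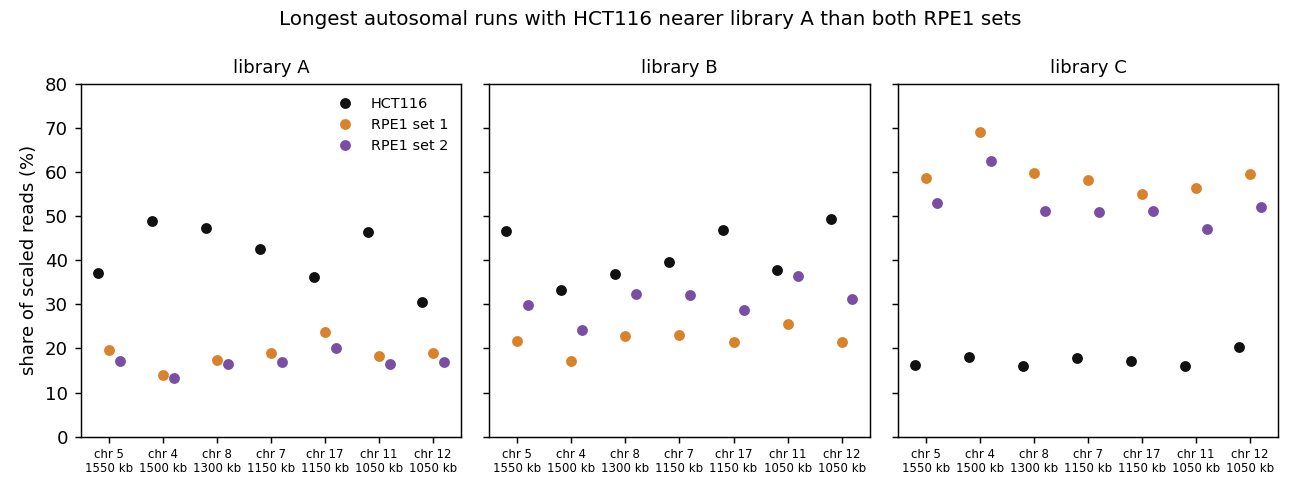
Shares of scaled reads (%, vertical axis) of libraries A, B and C in the longest autosomal runs with HCT116 at least 1 SD below both RPE1 sets (horizontal axis, by chromosome and length in kb). Points are sets. The run of MSX2 and DRD1, on chromosome 5, has 37.1% in library A and 46.5% in library B in HCT116, and the run on chromosome 4 has 48.8 and 33.2%.

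Windows elsewhere whose 9 shares were most like those of each gene were found by Euclidean distance, with windows within 500 kb joined. For MSX2 the nearest was chrX:120300001-120350000, at a distance of 4.08 points, followed by windows on chromosomes 6, 7, 6 and 4. For DRD1 the nearest was chr14:97400001-97450000, at 3.36 points, followed by windows on chromosomes X, 6, X and 7. The nearest other window of the domain itself was farther, at 6.35 points from MSX2 and 6.46 points from DRD1. Far more windows were searched outside the domain than in it, so nothing is read from this order. By Pearson correlation of the centred log2 values, the nearest domain window to MSX2 (r of 0.9959) came after the window ranked 3 outside (0.9965). It came before those ranked 4 (0.9957) and 5 (0.9956). For DRD1 the nearest domain window came after the window ranked 5 outside (0.9926, against 0.9948). The window at chr14:97400001-97450000 had 39.7, 43.1 and 17.2% in libraries A, B and C of HCT116, and 65.5 and 58.8% in library C of the RPE1 sets. All 10 windows lay in runs of at least 5 windows of the same direction. They were picked for shares like those of the genes, so this follows largely from the choice and nothing is read from it. By Pearson correlation of the centred log2 values only 1 of the 5 windows was the same for each gene, and 1 further pair of windows on chromosome X lay within 500 kb for each, so the particular windows depend on the measure.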

How the data were processed

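Values came as raw counts of reads per 1 kb bin of hg19, deposited by the authors with 3 columns a set. The tools Bowtie2, SAMtools 1.2 and bedtools 2.25 are named, without their roles, per the submitters' processing notes. The names of the tables speak of duplicates taken out, by a method not given in the sources used here. How reads with several map positions were treated is likewise not given, and it changes the count of a bin. Bins were summed to windows of 20 and 50 kb with Python 3.11.15, NumPy 2.4.6 and pandas 2.3.3. A 50 kb window was kept with at least 25 covered bins, 50 reads over the RPE1 libraries and 30 reads in each set, which left 56725 of 60718. Each library was scaled to an equal total over kept autosomal windows. Shares are percent of the scaled reads of a set. For the axis, 1 was added to the scaled reads before log2. Intervals came from SciPy 1.17.1. The search for runs was tried on simulated counts. Every set there had the profile of RPE1 set 1 with counting error only, and planted runs exchanged libraries A and C. The simulation had no variation between lines or sets, so it does not measure how reliable the run described here is.

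The members, the domain and the lists were chosen with earlier results of these data known. The genes named are MSX2 and DRD1, with the 5 most alike windows for each. Gene lists of skeletal patterning factors and other dopamine receptors were not analysed here, because no hg19 gene table was used. Alternatives varied the window, scaling, filter, pseudocount, axis, limit and RPE1 set. With 1 HCT116 set no p-value was computed.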

Additional observations from a re-analysis of the deposited data

Results flagged for a closer look

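In the 50 kb windows of MSX2 and DRD1 and in the run around them, library A held more than library C in HCT116. It held less than library C in both RPE1 sets, so the order of these libraries was opposite in the 2 lines. With 1 HCT116 set the difference was not tested, and the region had been chosen for it. At MSX2 the share of library A minus that of library C was 16.4 points in HCT116, against -45.3 points in RPE1 set 1 and -47.0 points in RPE1 set 2. At DRD1 it was 21.8 points in HCT116, against -47.6 and -44.6 points in the RPE1 sets. Over the run it was 20.8 points in HCT116, against -38.8 and -35.9 points in the RPE1 sets. In the 7 bins of MSX2 itself, with 67 reads, the value in HCT116 was -4.61 points, against -61.1 and -55.1 points in the RPE1 sets.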

How the results depend on the processing

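Of 156 values recomputed under alternative settings, 136 stayed within the spread between the RPE1 sets or within 1.5 times the main count, 20 moved further and 0 changed direction. Part of this tally was fixed in advance. Leaving out 1 RPE1 set always moves a share difference by less than the SD of the RPE1 sets. Counts, percentages of windows and run lengths had no direction to change. The difference in library C at MSX2, -44.5 points, was -47.3 points in 20 kb windows, -41.8 points in 100 kb windows, -40.1 points with windows shifted by 25 kb and -47.5 points with libraries thinned to the smallest. At DRD1 it ran between -47.8 and -38.9 points. The difference in library A at DRD1 was 24.2 points in 50 kb windows and 17.2 points in 20 kb windows. The range of library C over the domain was smaller in HCT116 than in RPE1 by 51.1 points (difference -51.1) in 50 kb windows and by 37.2 points (difference -37.2) in 20 kb windows. The share of the domain apart ran between 40.6 and 65.6%, and that of the genome between 2.09 and 19.03%. The run was 1550 kb long, 1240 kb in 20 kb windows, 500 kb at 1.5 SD and 100 kb with normal ranks. The shorter runs named here did not reach DRD1, and the cause of the 100 kb length was not tested. No paired analysis was possible because no column is tied to a single fraction and nothing was tested. Depth limited the gene body of MSX2 most, and bins with extreme counts, 2419 over the genome, numbered 0 in the domain.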
